A study of Rattus norvegicus with 19 samples.

Results

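The genes that pass and end signals from heptahelical receptors were examined in rat hearts. Members were chosen by gene symbol and comprised the α, β and γ subunits of heterotrimeric G proteins (Gna, Gnb and Gng), the regulators of G protein signaling (RGS, Rgs), the G protein-coupled receptor kinases (GRK, Grk) and the β-arrestins Arrb1 and Arrb2. The deposited counts held 58 such genes among 17455, namely 16 Gα, 5 Gβ, 9 Gγ, 20 RGS, 6 GRK and 2 arrestin genes. The RGS symbols include Rgs7bp and Rgs9bp, which encode proteins that bind RGS proteins. Of the 58 members, 51 passed the expression filter and were tested among 12388 genes.

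An activated receptor exchanges the GDP on a Gα subunit for GTP, and Gα and the Gβγ dimer then separate and act on effectors such as adenylyl cyclase, phospholipase C and potassium channels. RGS proteins shorten the signal by speeding the hydrolysis of GTP on Gα, while GRKs phosphorylate the active receptor so that β-arrestins bind it and uncouple it from the G protein. In the heart, this machinery carries the adrenergic drive of contraction and the muscarinic slowing of heart rate.

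Left ventricular RNA came from Sprague-Dawley rats that were 24 weeks old at the start, with 1 library per heart. Control 5w and control 9w rats received no L-NAME and were harvested at weeks 5 and 9. HFpEF rats drank water with L-NAME (0.5 g/L), which blocks the synthesis of nitric oxide, ate a high-fat diet (60% of kilocalories from fat) and were harvested at week 5. The other 4 groups of such rats were harvested at week 9 after 4 weeks of daily gavage, with phosphate-buffered saline (untreated), empagliflozin at 0.35 g/kg (EMPA), pirfenidone at 0.3 g/kg (PFD) or both drugs (EMPA + PFD). EMPA inhibits the renal glucose transporter SGLT2, and PFD is an antifibrotic drug. There were 3 libraries per group, and 2 for EMPA and for PFD.

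The libraries held between 7430539 and 13017754 counts (median 9951011). Levels are given in CPM (a gene's counts per 10⁶ counts of its library, with TMM normalization), in the order of replicate number, and a library is named by its group and replicate. In all, 4 comparisons followed the design: PC for the physiological change between control 9w and control 5w, DE for disease establishment (HFpEF vs. control 5w), UT for the untreated course (untreated vs. control 9w) and TE for the effect of the combination (EMPA + PFD vs. untreated). Each drug was also compared with untreated, and EMPA + PFD with EMPA, PFD and HFpEF. A member rose or fell where edgeR's quasi-likelihood test gave an adjusted p under 0.05.

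Several libraries stood apart or went against their labels. All hearts are labelled male and the series text gives equal numbers of both sexes, yet the Y-linked gene Eif2s3y had 0 counts in 7 libraries (HFpEF 1, HFpEF 3, all untreated and both PFD libraries) and 613 to 1321 counts in the other 12. A count of 0 allows a level of up to 3 counts. TE, UT, EMPA vs. untreated and EMPA + PFD vs. PFD therefore set libraries that all lack Eif2s3y against libraries that all have it, and treatment cannot be told apart from this difference. A fit with Eif2s3y detection as a term was added, in which the term is estimated from the HFpEF libraries alone, since only they hold both kinds, and HFpEF 2 alone stands for HFpEF with Eif2s3y. The major histocompatibility gene RT1-CE16 had at most 3 counts in control 5w, HFpEF and EMPA and 308 to 922 counts in the other groups. PC, EMPA vs. untreated, EMPA + PFD vs. EMPA and EMPA + PFD vs. HFpEF therefore set libraries nearly without this gene's counts against libraries with them, and so does the difference between UT and DE. In these comparisons age or treatment cannot be told apart from this difference between the animals. HFpEF 1 had the lowest summed level of 7 ventricular cardiomyocyte markers (9592 CPM) and the highest of 9 leukocyte markers (868 CPM). Untreated 2 had 14986 CPM of 6 atrial markers, against 77.9 and 505 CPM in the other untreated libraries, and control 9w 3 had 23531 CPM. The ventricular marker Myl2 and the other 6 genes of that list had counts in all 19 libraries.

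TE lowered 6 of the 51 tested members and raised 0 in edgeR's quasi-likelihood test, adjusted by Benjamini-Hochberg. The 6 were the receptor kinases Grk4, Grk5 and Grk6, the β subunits Gnb1 and Gnb2, and Rgs3, and in all 6 the EMPA + PFD libraries lay wholly below the untreated libraries, as groups were apart for 96.8% of all genes called in TE. Among all tested genes, 5.52% fell and 6.60% rose in TE. Called or not, groups were apart for 37.4% of all tested genes and for 22 of the 51 members. At an unadjusted p under 0.05 there were 23 members and 4055 of the 12388 genes, and DESeq2 and voom called 10 and 17 members, with 1 and 3 of them higher. These are 19.6% and 33.3% of the members, against 20.6% and 30.0% of all tested genes in the same tools. The median log2 fold change of the members was -0.35 against -0.03 for all tested genes, with 34 members below 0 and 17 above. None of the 6 reached a 2-fold change, which 3.82% of tested genes did together with the adjusted p. The count was 0 without untreated 2, without EMPA + PFD 2 or without EMPA + PFD 3, 1 without untreated 3 (Grk6), 9 without untreated 1 and 11 without control 5w 1, which enters only the estimate of the spread. A fit on only the untreated and EMPA + PFD libraries also called 0 members, with adjusted p from 0.0898 to 0.137 for the 6. The share of all tested genes in that fit is not given here, so this count is no result about the members in particular.

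In DE, 10 members rose and 3 fell, against 9.83% and 10.2% of all tested genes. The 3 that fell were Gnao1, Rgs6 and Gnb5, and the 10 that rose were Gnat1, Gnat2, Gnai3, Gng11, Rgs1, Rgs12, Rgs16, Grk4, Grk6 and Arrb2. Groups did not overlap for 12 of these 13, Rgs1 being the exception, and for 95.2% of all genes called in DE. A change of at least 2-fold was reached by 7 of them, and by 8.69% of tested genes. The count of 13 was 7 without control 5w 1, 7 without control 5w 2, 6 without control 5w 3 and 8 without HFpEF 2. Without HFpEF 1 it was 10, and without both HFpEF libraries lacking Eif2s3y it was 7, of which 5 (Gnao1, Gnat2, Gng11, Grk6 and Rgs12) were among the 13. That fit leaves HFpEF 2 alone, which is assumed to vary like the other groups and lay the farthest from control 5w for each of the 5 except Gnat2. The fit on only the HFpEF and control 5w libraries called 4, and the share of all tested genes in it is not given here.

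UT and the single drugs gave few calls. In UT, only Gnai3 fell and 0 members rose, against 1.19% and 0.589% of tested genes, or 0.912% with a 2-fold change. At an unadjusted p under 0.05 there were 12 members and 2259 of all tested genes, and DESeq2 and voom called 5 and 17 members, beside 6.69% and 40.4% of all tested genes. The UT count was 4 without untreated 2, 3 without EMPA + PFD 1, 2 without control 5w 1, and 0 without control 9w 1, control 9w 2, untreated 1 or untreated 3. EMPA vs. untreated changed 0 members in edgeR, DESeq2 and voom (4 members and 1069 genes at an unadjusted p under 0.05), where 0.0404% of tested genes, 5 in number, were called. PFD vs. untreated also changed 0 members in the 3 tools (0 members and 646 genes at an unadjusted p under 0.05), where 1 gene, 0.00807%, was called. EMPA + PFD vs. PFD changed 0 members in the 3 tools (3 members and 1266 genes at an unadjusted p under 0.05) and 0% of tested genes.

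Against EMPA alone, Grk4 and Grk6 were lower and Gna12 was higher in EMPA + PFD, where 4.42% of tested genes fell and 5.30% rose. These groups also differ in RT1-CE16 counts. None of the 3 reached a 2-fold change, which 3.44% of tested genes did. DESeq2 called 6 members and voom 9, beside 17.4% and 24.9% of all tested genes, and 17 members and 3794 genes had an unadjusted p under 0.05. The count was 0 without either EMPA library, where the remaining one is assumed to vary like the other groups, 1 without EMPA + PFD 2 (Grk4), 1 without EMPA + PFD 3 (Grk4) and 5 without EMPA + PFD 1. Control 9w against control 5w raised 13 members and lowered 8 (17.3% and 17.2% of tested genes, and 14.7% with a 2-fold change). EMPA + PFD against HFpEF raised 7 and lowered 19 (22.3% and 24.5% of tested genes, and 22.7% with a 2-fold change), and these groups differ by 4 weeks of age and in RT1-CE16 counts as well as by treatment. PC, DE, UT, TE and the comparisons with EMPA + PFD share groups, so their values are given side by side and not tested for overlap.

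**Figure D1:**
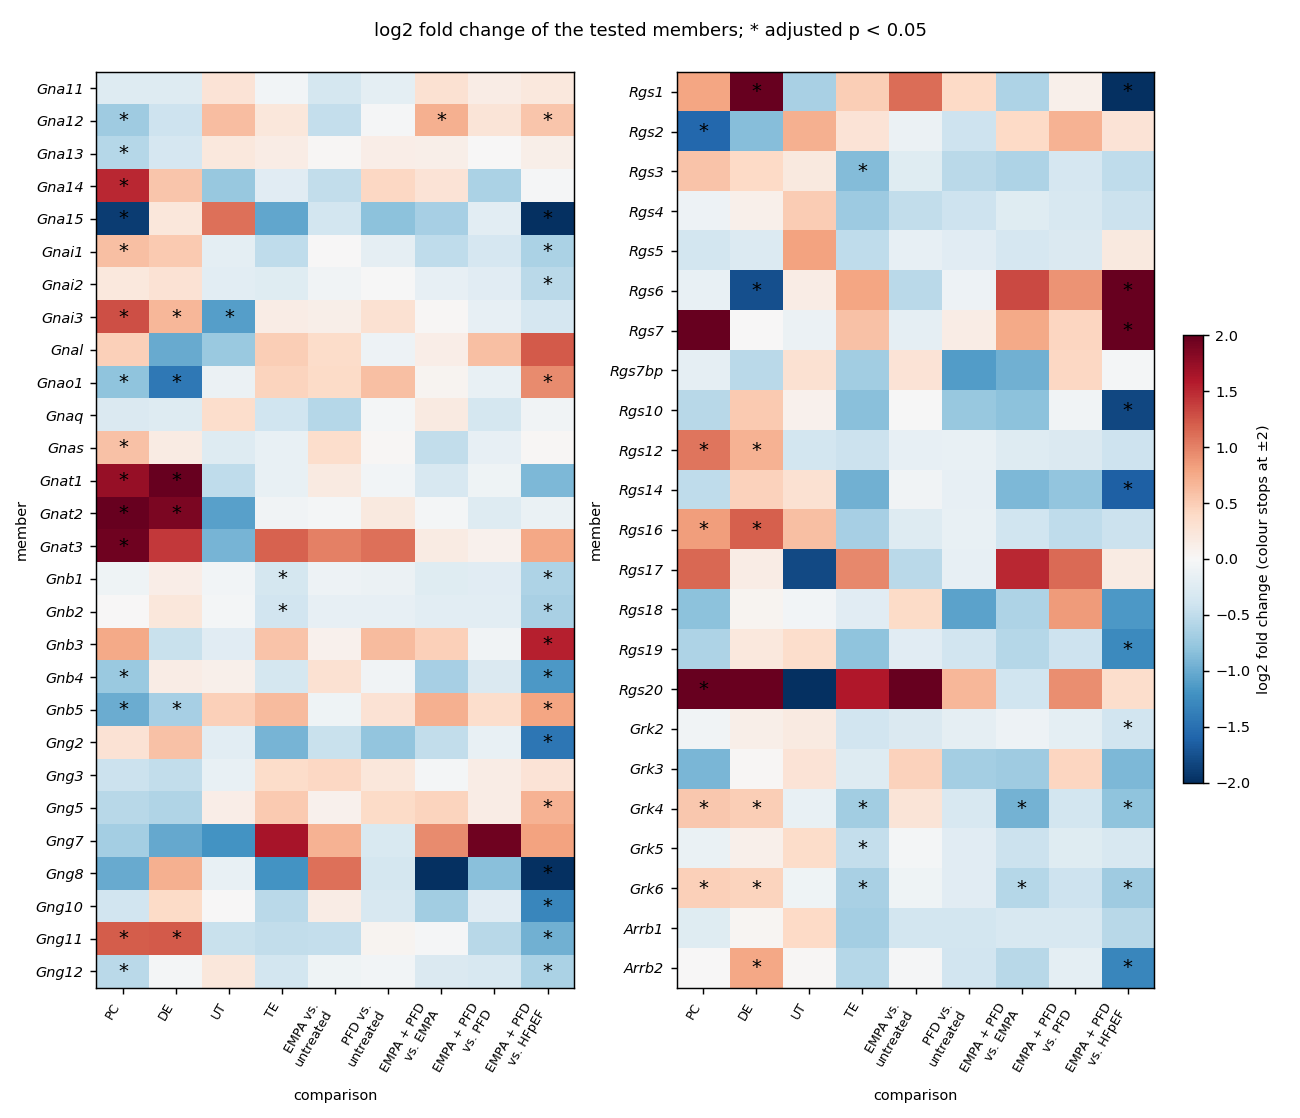
Log2 fold change of the 51 tested members (rows, by family) in 9 comparisons (columns), with red for higher, blue for lower and an asterisk where the adjusted p was under 0.05. In TE the asterisks mark Gnb1, Gnb2, Rgs3, Grk4, Grk5 and Grk6, all below 0.

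Among the receptor kinases, Grk6, which is expressed in many tissues, had 74.5, 93.7 and 84.2 CPM in the untreated libraries and 58.4, 48.3 and 54.3 CPM with EMPA + PFD. Each EMPA + PFD library lay below each of the other 16 libraries. Grk6 fell in TE (log2 fold change -0.65, standard error 0.13, adjusted p = 0.0127) and against EMPA alone (log2 fold change -0.56, standard error 0.15, adjusted p = 0.0317). In EMPA it had 81.1 and 77.6 CPM and in PFD 66.9 and 76.1 CPM, neither of which passed against untreated. The TE call was lost without untreated 2 (adjusted p = 0.0601), EMPA + PFD 2 (0.0830) or EMPA + PFD 3 (0.0504), at log2 fold changes from -0.64 to -0.56. It was kept with the Eif2s3y term (log2 fold change -0.96, adjusted p = 0.0382). Control 9w ran from 74.4 to 102.7 CPM, overlapping untreated, and Grk6 did not pass in UT. At week 5, Grk6 had 62.6, 63.5 and 66.5 CPM in control 5w and 80.4, 100.4 and 81.7 CPM in HFpEF, and it rose in DE (log2 fold change 0.45, standard error 0.13, adjusted p = 0.0284). That call was lost without HFpEF 2 (adjusted p = 0.112) and without control 5w 1, 2 or 3 (0.0766, 0.0680 and 0.0574).

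Grk4, a kinase of the same subfamily, had 10.6, 10.3 and 12.4 CPM in untreated and 7.33, 7.41 and 5.75 CPM in EMPA + PFD. The highest EMPA + PFD library lay below the lowest untreated one, and the EMPA libraries, at 12.9 and 13.5 CPM, lay above all untreated libraries. Grk4 fell in TE (log2 fold change -0.70, standard error 0.16, adjusted p = 0.0193) and against EMPA (log2 fold change -0.95, standard error 0.18, adjusted p = 0.0131). The TE call was lost without untreated 2 (adjusted p = 0.0553), untreated 3 (0.0659), EMPA + PFD 2 (0.0651) or EMPA + PFD 3 (0.0800) and with the Eif2s3y term (log2 fold change -0.62, adjusted p = 0.215). Without those libraries the log2 fold change of Grk4 in TE ran from -0.75 to -0.57. The calls of Grk4 and Grk6 against EMPA were lost without EMPA 1 (adjusted p = 0.0599 and 0.135) or EMPA 2 (0.102 and 0.142). For Grk6 that call was also lost without EMPA + PFD 2 (0.127) or EMPA + PFD 3 (0.0907). Control 9w ran from 10.1 to 13.8 CPM, overlapping untreated and above EMPA + PFD, and Grk4 did not pass in UT. In control 5w Grk4 had 7.54, 9.08 and 8.83 CPM against 12.1, 11.6 and 12.3 CPM in HFpEF, so all HFpEF libraries were higher. It rose in DE (log2 fold change 0.50, standard error 0.16, adjusted p = 0.0398), a call that no omission of a library of those groups left in place (adjusted p from 0.0604 without control 5w 2 to 0.118 without control 5w 1).

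Grk5, which with Grk2 is one of the main receptor kinases of the heart, had 64.1, 73.8 and 70.3 CPM in untreated and 50.9, 55.2 and 44.1 CPM in EMPA + PFD. The groups did not overlap, and Grk5 fell in TE (log2 fold change -0.47, standard error 0.15, adjusted p = 0.0481). Of the 6 calls this one had the largest adjusted p. It was lost without untreated 2 (adjusted p = 0.169), untreated 3 (0.101) or EMPA + PFD 1, 2 or 3 (0.0759, 0.109 and 0.169), at log2 fold changes from -0.54 to -0.37. It was also lost with the Eif2s3y term (log2 fold change -0.23, adjusted p = 0.639) and with RLE normalization (0.0537). Grk2 had 80.1, 75.0 and 69.2 CPM in untreated and 61.0, 52.5 and 58.6 CPM in EMPA + PFD, again with no overlap, but did not pass in TE (log2 fold change -0.38, standard error 0.12, adjusted p = 0.0532). Such groups did not overlap for 37.4% of all tested genes. Grk3, a close relative of Grk2, stayed between 0.657 and 3.44 CPM in all libraries and passed in none of the 9 comparisons of groups. Grk1, a kinase of the retina, had 0 counts in every library. Summed over the 6 GRK genes, the EMPA + PFD libraries lay between 164 and 179 CPM and the untreated libraries between 231 and 255 CPM. The genes of Grk4 and Grk5 each overlap an uncharacterized gene in the RefSeq annotation and may share reads with it.

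**Figure D2:**
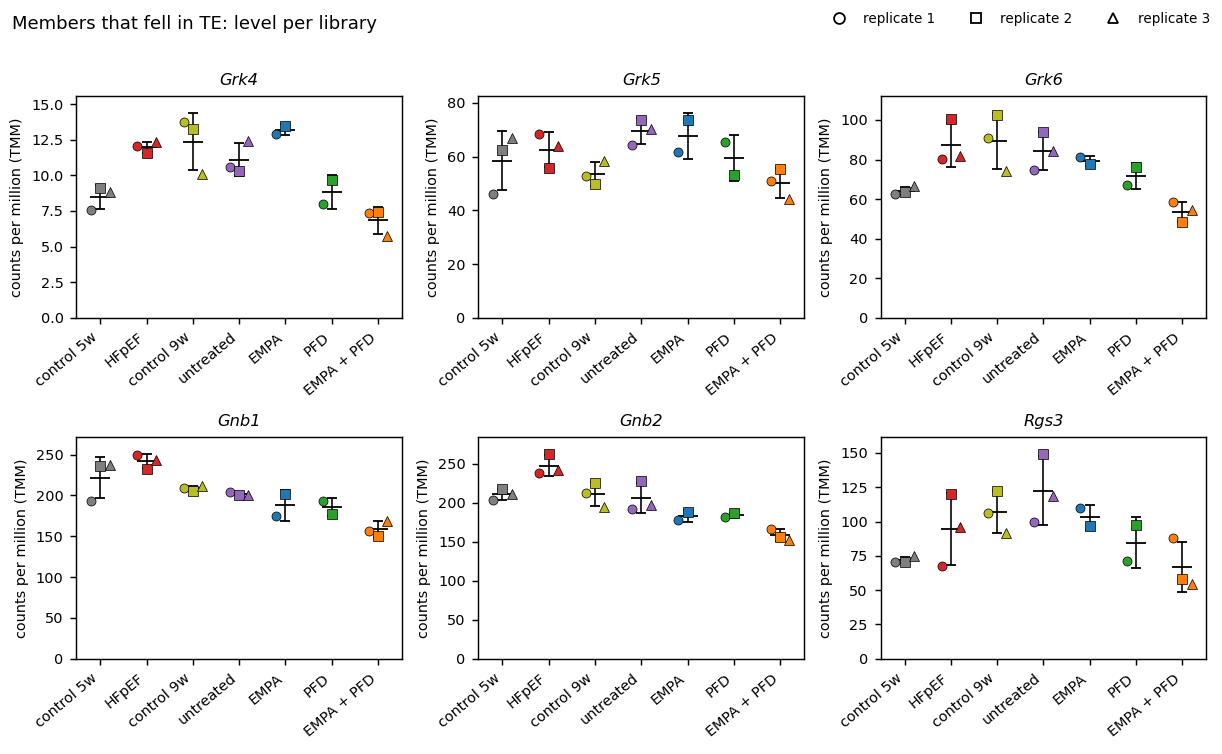
Level of the 6 members that fell in TE in each library (points, shaped by replicate; CPM after TMM), with the group mean and SD (bars). The EMPA + PFD points of Grk6, between 48.3 and 58.4 CPM, lie below those of every other group.

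The β subunits Gnb1 and Gnb2, which are expressed in most tissues, also fell in TE. Gnb2 had 192, 228 and 198 CPM in untreated and 167, 156 and 152 CPM in EMPA + PFD (log2 fold change -0.38, standard error 0.10, adjusted p = 0.0269). Gnb1 had 204, 201 and 201 and 156, 149.8 and 169 CPM (log2 fold change -0.35, standard error 0.10, adjusted p = 0.0414). The differences were small, but the EMPA + PFD libraries lay below the untreated ones for both genes. Gnb2 lost its call without untreated 2 (adjusted p = 0.114), untreated 3 (0.0629), EMPA + PFD 2 (0.125) or EMPA + PFD 3 (0.110) and with the Eif2s3y term (log2 fold change -0.51, adjusted p = 0.102). Gnb1 lost it without each of the 6 libraries (adjusted p from 0.0560 without untreated 1 to 0.173 without EMPA + PFD 2) and with the Eif2s3y term (log2 fold change -0.26, adjusted p = 0.419). Where leaving out a library lost the call, log2 fold changes ran from -0.40 to -0.30 for Gnb2 and from -0.38 to -0.30 for Gnb1. Gnb1 overlaps an uncharacterized gene in the annotation and may share reads with it. Neither passed in PC, DE or UT, where their log2 fold changes ran from -0.086 (Gnb1 in PC) to 0.23 (Gnb2 in DE).

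Gnb5 differs from the other β subunits in pairing with RGS proteins of the Rgs6 and Rgs7 class in place of a γ subunit. It had 14.0, 13.5 and 11.9 CPM in control 5w and 8.18, 8.34 and 8.31 CPM in HFpEF. All HFpEF libraries were lower, and Gnb5 fell in DE (log2 fold change -0.66, standard error 0.21, adjusted p = 0.0382). The call was lost without any 1 of the 6 libraries (adjusted p from 0.0574 without control 5w 3 to 0.102 without control 5w 1) and without both HFpEF libraries lacking Eif2s3y (log2 fold change -0.65, adjusted p = 0.209). With EMPA + PFD its levels ran from 12.9 to 17.0 CPM, above the untreated levels of 7.49, 8.53 and 11.5 CPM, but TE did not pass (log2 fold change 0.64, standard error 0.21, adjusted p = 0.0600). These groups were apart for 37.4% of all tested genes. Gnb3 and Gnb4 passed in none of PC, DE, UT and TE except for Gnb4 in PC. Gnb3, a subunit known from cone photoreceptors and also counted here, ranged from 18.7 CPM in HFpEF 1 to 242 CPM in EMPA + PFD 1.

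Of the inhibitory α subunits, Gnao1, which encodes the Go protein of brain and atrial tissue, had 43.5, 57.8 and 59.1 CPM in control 5w and 19.7, 14.1 and 26.0 CPM in HFpEF. No HFpEF library reached the lowest control. Gnao1 fell in DE (log2 fold change -1.42, standard error 0.28, adjusted p = 0.00492), and the call was kept under all 17 alternatives, with adjusted p at most 0.0315. Without HFpEF 1 the log2 fold change was -1.41, and with HFpEF 2, the lowest, as the only HFpEF library it was -1.92. At week 9 the levels were 24.9, 22.8 and 44.3 CPM in control 9w, 28.0, 28.6 and 28.3 CPM in untreated and 31.1, 49.7 and 34.7 CPM in EMPA + PFD. Control 9w spanned the untreated values, and neither UT (-0.12, adjusted p = 0.856) nor TE (0.44, adjusted p = 0.268) passed. Gnao1 overlaps an uncharacterized gene in the annotation and may share reads with it.

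Gnai3, 1 of 3 genes for Gi, had 172, 171 and 177 CPM in control 5w and 244, 246 and 331 CPM in HFpEF, and at week 9 428, 434 and 401 CPM in control 9w and 170.2, 214 and 203 CPM in untreated. Control 9w was higher than every other library of the series, while untreated 1 lay at the level of control 5w and untreated 2 and 3 between control 5w and HFpEF. Gnai3 rose in DE (log2 fold change 0.66, standard error 0.20, adjusted p = 0.0333) and in PC (log2 fold change 1.28, standard error 0.20, adjusted p = 0.000606) and fell in UT (log2 fold change -1.11, standard error 0.20, adjusted p = 0.0206). The UT call was lost without control 9w 1 (adjusted p = 0.0837), control 9w 2 (0.0897), untreated 1 (0.109) or untreated 3 (0.0623), and with the Eif2s3y term (log2 fold change -1.33, adjusted p = 0.196). The DE call was lost without control 5w 1, 2 or 3 (adjusted p = 0.0767, 0.0781 and 0.0735), without HFpEF 3 (0.115) and without HFpEF 1 and 3 (log2 fold change 0.50, adjusted p = 0.245). Gnai2, a Gi gene expressed in most tissues, ranged from 381 to 588 CPM and passed only against HFpEF, and Gnai1 ranged from 9.09 to 23.1 CPM.

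The transducins Gnat1 and Gnat2, the α subunits of rod and cone photoreceptors, were counted at low levels. Gnat2 had 1.98, 1.47 and 1.83 CPM in control 5w, 3.44, 6.05 and 10.2 CPM in HFpEF and 13.1, 15.0 and 11.7 CPM in control 9w. The 3 groups did not overlap, and Gnat2 rose in DE (log2 fold change 1.89, standard error 0.38, adjusted p = 0.00600) and in PC (log2 fold change 2.91, standard error 0.39, adjusted p = 0.000214). In DE this call was kept without each library in turn and without HFpEF 1 and 3 (adjusted p = 0.0193), and lost in the fit on only the 6 libraries (0.0581). Gnat2 and Gnai3 overlap each other in the annotation, so reads of Gnai3 may have been counted for Gnat2 or the reverse. Gnat1 had 0.377, 0.543 and 0.398 CPM, from 4, 7 and 5 counts, in control 5w and 2.44, 1.28 and 1.61 CPM in HFpEF. It rose in DE (log2 fold change 1.99, standard error 0.48, adjusted p = 0.0135), a call lost without HFpEF 1 and 3 (log2 fold change 1.51, adjusted p = 0.157), and may share reads with an uncharacterized gene that it overlaps. The gustducin gene Gnat3 rose only in PC, from 1.41, 0.310 and 0.239 to 2.48, 3.32 and 1.70 CPM.

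The stimulatory α subunit Gnas, which activates adenylyl cyclase, had 578, 516 and 623 CPM in untreated and 567, 498 and 493 CPM in EMPA + PFD. These groups overlapped (TE log2 fold change -0.14, adjusted p = 0.580), and Gnas rose only in PC. Gnaq and Gna11, which activate phospholipase C, passed in none of the 9 comparisons. Gnaq had 21.6, 18.4 and 17.6 CPM in untreated and 12.7 and 13.2 CPM in EMPA, and of the members it had the smallest adjusted p for EMPA vs. untreated (log2 fold change -0.57, standard error 0.17, adjusted p = 0.320). The EMPA libraries of Gnaq and of Gna11 lay below all untreated ones, within a comparison that called no member. In it, groups did not overlap for 23.7% of all tested genes. Gna12, which signals to the cytoskeleton, had 172 and 193 CPM in EMPA and 281, 345 and 268 CPM in EMPA + PFD. It rose against EMPA (log2 fold change 0.71, standard error 0.21, adjusted p = 0.0460), and the call was lost without EMPA 1 (adjusted p = 0.206), EMPA 2 (0.171), EMPA + PFD 2 (0.137) or EMPA + PFD 3 (0.0720). Untreated 2 had 176 CPM of Gna12 against 323 and 268 CPM in the other untreated libraries. Gna13, of the same class, fell only in PC.

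Among the γ subunits, Gng11, which is found in endothelial and other non-muscle cells, had 6.69, 5.20 and 5.33 CPM in control 5w and 7.54, 20.1 and 12.9 CPM in HFpEF. HFpEF 2 was the highest and HFpEF 1 lay just above the controls. Gng11 rose in DE (log2 fold change 1.23, standard error 0.32, adjusted p = 0.0174), with the call lost without HFpEF 2 (adjusted p = 0.0835), control 5w 2 (0.0527) or control 5w 3 (0.0562). Gng5 had 169, 110.3 and 110.3 CPM in control 5w and 76.0, 84.6 and 96.5 CPM in HFpEF, and 122, 65.0 and 103 CPM in untreated against 163, 129 and 126 CPM in EMPA + PFD. The groups did not overlap in either pair, and neither DE (-0.60, adjusted p = 0.0547) nor TE (0.53, adjusted p = 0.0987) passed. Of all tested genes, 37.7% did not overlap in DE and 37.4% in TE. Gng2 varied within groups, with 17.9, 46.4 and 15.5 CPM in untreated, where untreated 2 was the high library. Gng3, Gng5, Gng7 and Gng10 overlap other genes in the annotation (Bscl2 for Gng3, Rpf1 for Gng5 and Shoc1 for Gng10) and may share reads with them.

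The largest family, the RGS genes, had 1 member that fell in TE. Rgs3, which acts on Gi and Gq, had 99.4, 149 and 119 CPM in untreated and 87.9, 58.5 and 54.5 CPM in EMPA + PFD. The highest EMPA + PFD library, replicate 1, lay below the lowest untreated one, also replicate 1. Rgs3 fell in TE (log2 fold change -0.87, standard error 0.22, adjusted p = 0.0264), with the call kept with the Eif2s3y term (log2 fold change -1.42, adjusted p = 0.0449). It was lost without untreated 2 (adjusted p = 0.124), untreated 3 (0.0621), EMPA + PFD 2 (0.129) or EMPA + PFD 3 (0.105), at log2 fold changes from -0.88 to -0.70. Rgs3 overlaps the pseudogene Uchl3-ps2 in the annotation and may share reads with it. Of the others known in the heart, Rgs2, Rgs4, Rgs5 and Rgs14 did not pass in TE. Rgs14 had 4.85, 7.23 and 4.43 CPM in untreated and 3.19, 1.91 and 3.34 CPM in EMPA + PFD, with no overlap, as for 37.4% of all tested genes (log2 fold change -0.96, standard error 0.31, adjusted p = 0.0557). Rgs4 had 95.7, 109 and 81.9 and 85.9, 41.5 and 45.2 CPM, with EMPA + PFD 1 inside the untreated range (-0.73, adjusted p = 0.180). Rgs5, a gene of pericytes and vascular smooth muscle, had 234, 186 and 244 CPM in control 9w and 440.1, 321 and 393 CPM in untreated, where all libraries lay above the controls, and did not pass in UT (log2 fold change 0.80, standard error 0.21, adjusted p = 0.0588). Groups did not overlap in UT for 23.0% of all tested genes.

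Rgs6, which with Gnb5 limits muscarinic signaling in the sinoatrial node and atrium, had 36.0, 22.7 and 28.3 CPM in control 5w and 4.88, 10.9 and 9.91 CPM in HFpEF. All HFpEF libraries were lower, HFpEF 1 most of all, and Rgs6 fell in DE (log2 fold change -1.76, standard error 0.41, adjusted p = 0.0110). The call was kept without each library in turn (adjusted p at most 0.0385) and lost without HFpEF 1 and 3 together (log2 fold change -1.41, adjusted p = 0.140). At week 9, Rgs6 had 36.8, 30.9 and 19.2 CPM in untreated and 33.8, 51.8 and 64.4 CPM in EMPA + PFD, where the groups overlapped and TE did not pass (log2 fold change 0.79, standard error 0.39, adjusted p = 0.175). Rgs7, of the same class, had at most 0.625 CPM in HFpEF. Rgs9, the retinal and striatal member, had too few counts to be tested. Rgs6 overlaps 6 uncharacterized genes in the annotation and may share reads with them.

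Other RGS genes rose in DE. Rgs16, which is induced by many stimuli, had 5.18, 6.36 and 6.76 CPM in control 5w and 11.3, 12.7 and 18.0 CPM in HFpEF (log2 fold change 1.19, standard error 0.27, adjusted p = 0.00901). All HFpEF libraries were higher, and the call was kept without each library in turn and lost without HFpEF 1 and 3 together (log2 fold change 1.05, adjusted p = 0.0692). Rgs12 had 25.5, 30.3 and 31.8 and 35.2, 57.3 and 49.9 CPM (log2 fold change 0.70, standard error 0.21, adjusted p = 0.0292), with the call lost without HFpEF 2 (0.112), HFpEF 3 (0.0668) or control 5w 1, 2 or 3 (0.0926, 0.0584 and 0.0531). Rgs12 may share reads with Rgs12l1 and Rps17l4, which it overlaps. Rgs1, a gene of lymphocytes and other leukocytes, had 0.848, 7.06 and 4.22 CPM in control 5w and 78.2, 3.48 and 35.8 CPM in HFpEF. Only HFpEF 1 and HFpEF 3 were high, and HFpEF 2 lay within the controls. Rgs1 rose in DE (log2 fold change 3.26, standard error 0.83, adjusted p = 0.0161), but the call was lost without HFpEF 1 (adjusted p = 0.0675), control 5w 1 (0.0503) or control 5w 3 (0.0507). Without HFpEF 1 and 3 the direction turned, with a log2 fold change of -0.23 (adjusted p = 0.886). The leukocyte markers of the same libraries summed to 284, 562 and 497 CPM in control 5w and 868, 283 and 556 CPM in HFpEF, and their part in the result was not tested. In such tissue counts, fewer cells of a type and less RNA per cell cannot be told apart.

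The arrestins bind phosphorylated receptors. Arrb2 had 19.5, 34.3 and 33.3 CPM in control 5w and 62.4, 39.3 and 47.2 CPM in HFpEF, where HFpEF 1 was the highest library of the series. It rose in DE (log2 fold change 0.77, standard error 0.23, adjusted p = 0.0303), with the call lost without HFpEF 1 (adjusted p = 0.120), control 5w 1 (0.102) or HFpEF 1 and 3 together (log2 fold change 0.44, adjusted p = 0.372). In untreated and EMPA + PFD, Arrb2 had 27.2, 37.8 and 24.1 and 20.2, 20.0 and 19.8 CPM, and TE did not pass (-0.57, adjusted p = 0.109). Arrb1 ran from 16.6 to 31.0 CPM in untreated, with untreated 2 the highest, and from 10.2 to 16.4 CPM in EMPA + PFD. Its EMPA + PFD libraries also lay below the untreated ones, and it passed in none of the 9 comparisons (TE log2 fold change -0.68, adjusted p = 0.0777). Groups were apart in TE for 37.4% of all tested genes.

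The 7 members that were not tested were Gnaz, Gng13, Grk1, Rgs8, Rgs9, Rgs9bp and Rgs21. Their highest count in any library was 10 (Gnaz in HFpEF 1), and Rgs21 had 1 count in all. Members such as Gnal, Gna14, Gng7, Gng8, Rgs7, Rgs7bp and Rgs20 were tested with fewer than 10 counts in some libraries.

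Cell type markers moved alongside TE. Of 7 ventricular cardiomyocyte markers 1 rose (Ryr2, log2 fold change 1.10), with summed levels of 56295, 16410.0 and 46371 CPM in untreated and 54375, 77407 and 65876 CPM in EMPA + PFD. Myh6 was the most counted of the 7 on average over all libraries. Of 6 atrial markers 2 fell (Myl4 and Sln), with sums of 77.9, 14986 and 505 CPM and 105, 400.5 and 171 CPM, where Nppa was the most counted on average. Of 7 endothelial markers 1 fell (Egfl7, -1.08), with sums of 2512, 2515 and 2879.8 CPM and 1791, 1442 and 1456 CPM, Kdr being the most counted on average. In the list of 4 tested blood and platelet genes 1 rose (Slc4a1), and sums were 234, 208 and 304 CPM and 146, 461 and 241 CPM, with Hbb the most counted. The fibroblast (7), smooth muscle and pericyte (9), leukocyte (8 tested) and adipocyte (2 tested) lists had 0 calls in TE by edgeR. Smooth muscle and pericyte sums were 1572, 1554 and 1798 CPM in untreated and 1380, 1323 and 1187 CPM in EMPA + PFD. Leukocyte sums were 230, 385 and 216 and 171, 114 and 206 CPM. In both lists the EMPA + PFD sums lay below the untreated ones. Fibroblast sums overlapped (3889, 8141 and 3658 and 4644, 2012 and 3921.5 CPM). No marker of these lists was at 0 in every library. Untreated 2 had the lowest ventricular sum of the 6 libraries and the highest atrial sum. Their part in the fall of Grk4, Grk5, Grk6, Gnb1, Gnb2 and Rgs3 was not tested.

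In DE, marker lists moved as well. Of 7 ventricular cardiomyocyte markers 2 fell (Actc1 and Ryr2), with sums of 74361, 29765 and 33209 CPM in control 5w and 9592, 18780.0 and 28833 CPM in HFpEF. Of 7 endothelial markers 3 rose (Pecam1, Tek and Egfl7), with sums of 1593, 1204 and 1409.6 and 1190.2, 3097 and 2257 CPM. Of 8 tested leukocyte markers 1 rose (Cd3g), and of 9 smooth muscle and pericyte markers 1 fell (Abcc9). Fibroblast sums were 4459.8, 40884 and 32940.0 CPM in control 5w, uneven among the 3, and 16039, 9501 and 11841 CPM in HFpEF. Their part in the calls of Gnao1, Rgs6, Gng11, Arrb2 and the other members was not tested. In UT, 1 of 8 tested leukocyte markers rose (Cd3e) and 2 of 4 blood and platelet markers fell. Against EMPA, 3 of 9 smooth muscle and pericyte markers and 2 of 4 blood and platelet markers were lower in EMPA + PFD. Smooth muscle and pericyte sums were 1531 and 3440 CPM in EMPA and 1380, 1323 and 1187 CPM in EMPA + PFD. Blood and platelet sums were 2176 and 437.5 and 146, 461 and 241 CPM, so the EMPA libraries were uneven in both lists. The part of the UT and EMPA markers in the calls of Gnai3, Grk4, Grk6 and Gna12 was not tested either.

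The other genes of the pathway were taken from lists of 51 receptors, effectors, exchange factors and further regulators, of which 43 were tested. In DE, 5 of the 43 rose and 9 fell, against 9.83% and 10.2% of all tested genes. Without HFpEF 1 these counts were 3 and 6, and without HFpEF 1 and 3 they were 2 and 9. Of 14 tested effectors, 1 rose and 4 fell in DE, and 2 rose and 2 fell in TE, where 6.60% of all tested genes rose and 5.52% fell. Of all 43, 5 rose and 4 fell in TE. Without untreated 2 these counts were 1 (the receptor gene Chrm2) and 0. Shares of all tested genes in the fits that left libraries out are not given here, so their counts are no result about the pathway in particular.

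The genes of muscarinic signaling were put side by side after their values were seen, and no test of them as a set was made. Chrm2, the cardiac M2 acetylcholine receptor, had 57.7, 38.4 and 39.4 CPM in control 5w, 3.88, 2.84 and 8.40 CPM in HFpEF, 9.70, 5.41 and 17.1 CPM in control 9w, 20.0, 11.4 and 12.4 CPM in untreated and 46.7, 111 and 68.0 CPM in EMPA + PFD. The HFpEF libraries lay below control 5w and untreated and overlapped control 9w, and EMPA + PFD overlapped only control 5w. Chrm2 fell in DE (log2 fold change -3.16, standard error 0.45, adjusted p = 0.000880) and rose in TE (log2 fold change 2.36, standard error 0.43, adjusted p = 0.00854). The DE call was kept without HFpEF 1 (adjusted p = 0.00409) and the TE call without untreated 2 (0.0495). At week 9 Chrm2 did not pass against control 9w (UT 0.43, adjusted p = 0.632), and between the controls it fell (-2.06, adjusted p = 0.00272). With the Eif2s3y term the TE value of Chrm2 was 3.46 (adjusted p = 0.0419). Kcnj3, a subunit of the potassium channel that Gβγ opens after M2 activation, had 24.2, 20.4 and 19.5 CPM in control 5w, 2.80, 2.57 and 5.63 CPM in HFpEF, 13.9, 5.53 and 31.9 CPM in control 9w, 13.4, 18.3 and 7.17 CPM in untreated and 32.6, 48.5 and 41.9 CPM in EMPA + PFD. It fell in DE (-2.55, adjusted p = 0.00520) and rose in TE (1.65, adjusted p = 0.0365). For Kcnj3 the TE call was lost without untreated 2 (2.00, adjusted p = 0.0710) and with the Eif2s3y term (2.35, adjusted p = 0.165). In UT Kcnj3 did not pass (-0.40, adjusted p = 0.687). Beside them, the log2 fold changes in DE and TE were -1.42 and 0.44 for Gnao1, -1.76 and 0.79 for Rgs6, and -0.66 and 0.64 for Gnb5, of which only the DE values passed. Kcnj5, the partner subunit of Kcnj3, fell in DE (-1.32, adjusted p = 0.0301), a call lost without HFpEF 1 (-1.09, adjusted p = 0.103), and did not pass in TE (1.10, adjusted p = 0.0690). The 2 comparisons share no library. Rgs6, Chrm2 and Kcnj3 are known for their part in the atrium. The sums of the atrial markers, of which Nppa was the most counted on average, were 3302, 6132 and 4658 CPM in control 5w and 2098, 288 and 1980.5 CPM in HFpEF. At week 9 the atrial markers summed to 5242, 199 and 23531 CPM in control 9w, 77.9, 14986 and 505 CPM in untreated and 105, 400.5 and 171 CPM in EMPA + PFD. Their part was not tested.

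Other pathway genes changed with them. The adenylyl cyclase Adcy5, the main isoform of adult cardiomyocytes together with Adcy6, fell in DE (-1.35, adjusted p = 0.00592) and rose in TE (0.90, adjusted p = 0.0438). Without untreated 2 its TE value was 0.71 (adjusted p = 0.182). Snx13, which has an RGS domain, had 67.8, 66.1 and 65.9 CPM in control 5w and 39.5, 27.3 and 35.7 CPM in HFpEF, and fell in DE (-0.96, adjusted p = 0.00216). It rose in TE (0.78, adjusted p = 0.0135), from 50.4, 32.2 and 41.3 to 63.9, 82.5 and 66.8 CPM, and was at 0.63 without untreated 2 (adjusted p = 0.0614). The α1-adrenergic receptor gene Adra1a (-3.31, adjusted p = 0.000593) and the adenosine receptor gene Adora1 (-2.34, adjusted p = 0.0160) fell in DE, and the sphingosine phosphate receptor gene S1pr1 (1.68, adjusted p = 0.000614) and the cyclase gene Adcy4 (0.85, adjusted p = 0.00676) rose. Without HFpEF 1, Adora1 lost its call with little change in fold (-2.19, adjusted p = 0.0503) and kept it with HFpEF 2 as the only HFpEF library (-4.00, adjusted p = 0.0268), and those of Adra1a, S1pr1, Snx13, Kcnj3, Adcy5 and Adcy4 were kept. In TE, Adcy4 (-0.71, adjusted p = 0.0244), Adcy2 (-1.46, adjusted p = 0.0279) and the exchange factor gene Arhgef1 (-0.56, adjusted p = 0.0359) fell. Without untreated 2 these 3 had log2 fold changes of -0.51, -1.47 and -0.40, with adjusted p of 0.116, 0.0893 and 0.168. With the Eif2s3y term, Adcy4 (-1.20, adjusted p = 0.0391) and Snx13 (1.24, adjusted p = 0.0343) kept their TE calls. Those of Adcy2 (-0.21, adjusted p = 0.860), Arhgef1 (-0.79, adjusted p = 0.107) and Adcy5 (1.19, adjusted p = 0.177) were lost.

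**Figure D3:**
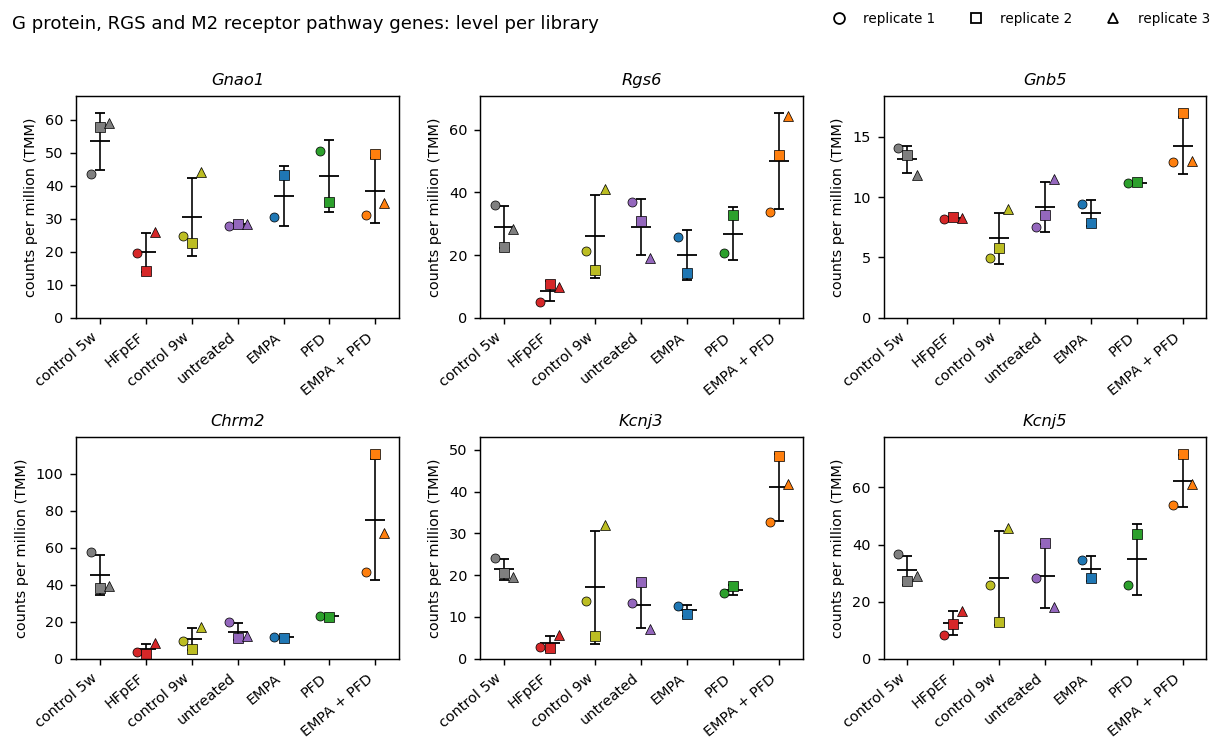
Level of Gnao1, Rgs6, Gnb5, Chrm2, Kcnj3 and Kcnj5 in each library (points, shaped by replicate; CPM after TMM), with the group mean and SD (bars). HFpEF lies below control 5w in all 6 panels, and the EMPA + PFD libraries lie above all untreated libraries in all but Rgs6. Only Chrm2 and Kcnj3 passed in TE, where groups did not overlap for 37.4% of all tested genes. The 6 genes were chosen after their values were seen. Not shown are Gnai3, which rose in DE, and Gnb1 and Gnb2, which fell in TE.

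The disease was set against a control at week 5 and again at week 9, and the difference between UT and DE was tested in the same model. It passed for 13 members, 6 with the higher value in UT and 7 with the lower, against 9.76% and 10.2% of tested genes (12 of the 13 with a difference of at least 2-fold, and 12.0% of tested genes). Among the α subunits, Gnai3 was 0.66 in DE and -1.11 in UT (difference -1.77, adjusted p = 0.00200) and Gnat2 was 1.89 in DE and -1.09 in UT (difference -2.97, adjusted p = 0.00297). Both calls and that of Gna12 (-0.42 in DE and 0.61 in UT, adjusted p = 0.0143) were kept under all 23 alternatives. Gnao1 and Rgs6, which fell in DE, were near 0 in UT (-0.12 and 0.16), with adjusted p of 0.0297 and 0.0289 for the difference. Gnao1 lost this call without any 1 of 8 libraries (adjusted p up to 0.0777, without control 9w 2) and Rgs6 without any 1 of 5 (up to 0.0806, without untreated 1). Gnb5 was -0.66 in DE and 0.47 in UT (lost without untreated 3, adjusted p = 0.0523), Gng11 1.23 in DE and -0.44 in UT (lost without control 9w 2, 0.0573) and Gnat1 1.99 in DE and -0.50 in UT (lost without HFpEF 1 and 3 together, 0.107). Of the RGS genes, Rgs5 was -0.27 in DE and 0.80 in UT (lost without control 9w 2 or untreated 1, adjusted p = 0.0561 and 0.0566). Rgs12 was 0.70 in DE and -0.37 in UT (lost without HFpEF 2, control 9w 2 or untreated 1, adjusted p = 0.0519, 0.0593 and 0.0562). Rgs20, which has few counts and may share reads with Atp6v1h and Hspd1-ps36, was 1.97 in DE and -2.36 in UT, Rgs1 3.26 in DE and -0.64 in UT and Gna11 -0.26 in DE and 0.27 in UT. Each of these 3 lost its call without several single libraries, among them untreated 1 (adjusted p = 0.0522, 0.0641 and 0.100) and untreated 3 (0.0518, 0.0677 and 0.0799). The count of 13 was 6 without control 9w 2, 6 without untreated 1, 8 without untreated 3 and 21 without untreated 2. Without HFpEF 1 and 3 it was 11, of which 6 (Gnai3, Gnat2, Gna12, Gng11, Rgs12 and Gnao1) were among the 13. The 7 lost were Gnb5, Gnat1, Rgs5, Rgs20, Rgs1, Rgs6 and Gna11, with adjusted p of 0.0722, 0.107, 0.0779, 0.168, 0.806, 0.138 and 0.140, and the difference for Rgs1 was then -0.41. With the Eif2s3y term, Rgs12 and Gnao1 lost the call (adjusted p = 0.0519 and 0.0667).

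The difference contains the change between the controls with its sign turned. Of the 13, 9 (69.2%) also passed in PC, as did 81.1% of all genes called for the difference, in both sets always with the opposite sign. Gnai3, Gnat2, Gnat1, Gng11, Rgs12 and Rgs20 rose in PC and Gna12, Gnb5 and Gnao1 fell. Among the marker lists, 2 of 7 ventricular cardiomyocyte markers (Actc1 and Ryr2) and 2 of 9 smooth muscle and pericyte markers (Notch3 and Abcc9) had the higher value in UT. The lower value in UT was found for 3 of 7 endothelial markers (Pecam1, Emcn and Egfl7) and 2 of 4 tested blood and platelet markers (Alas2 and Hbb). The fibroblast, atrial, leukocyte and adipocyte lists had 0 calls. Their part in the differences of Gng11, Rgs5 and the other members was not tested.

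**Figure D4:**
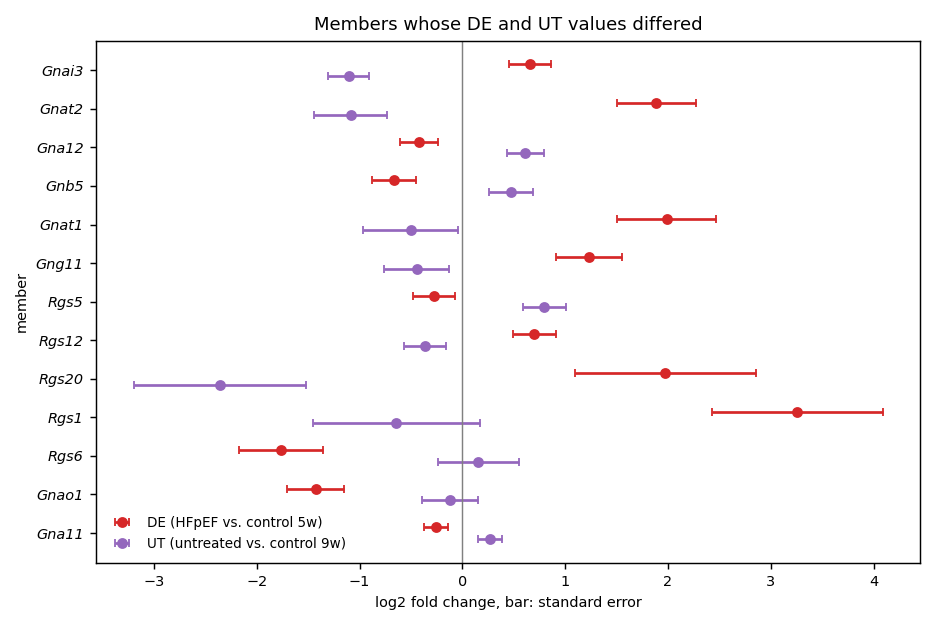
Log2 fold change in DE (red) and UT (purple) of the 13 members for which the 2 differed, with standard errors as bars. The values lie on opposite sides of 0 except for Gnao1, which is below 0 in both.

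Between the control groups, which also differ in RT1-CE16 counts, 21 members differed. Of these, 20 did not overlap, as did not 93.6% of all genes called in PC. The 12 with the smallest adjusted p were Gnat2, Gnai3, Rgs12, Gnb5, Gna15, Gna12, Gng11, Gna14, Gng12, Grk6, Rgs20 and Gnat1. Rgs12 rose from 25.5, 30.3 and 31.8 to 58.8, 80.4 and 45.8 CPM (log2 fold change 1.08, standard error 0.21, adjusted p = 0.00181). Gnb5 fell from 14.0, 13.5 and 11.9 to 4.96, 5.78 and 8.97 CPM (log2 fold change -0.99, standard error 0.21, adjusted p = 0.00341), and Gna12 from 248, 297 and 272 to 166, 164 and 171 CPM (log2 fold change -0.70, standard error 0.18, adjusted p = 0.00937). Gna15, the Gq class subunit of blood cells, fell from 3.77, 12.8 and 10.2 to 2.26, 2.21 and 2.69 CPM (log2 fold change -1.90, standard error 0.47, adjusted p = 0.00735). Of the others, Gng11 (1.21), Gna14 (1.51), Grk6 (0.48), Rgs20 (3.08) and Gnat1 (1.74) rose and Gng12 (-0.54) fell. The remaining 9, with adjusted p from 0.0172 to 0.0348, were Gnas, Grk4, Rgs16, Gnat3 and Gnai1, which rose, and Gna13, Rgs2, Gnb4 and Gnao1, which fell. Rgs20 had 3, 2 and 11 counts in control 5w, and Gna14 had 9, 10 and 8.

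The PC calls of Gnat2, Gnai3, Rgs12, Gnb5, Gna15, Gna12 and Gna14 were kept without each of the 6 control libraries. The calls lost were those of Grk4 and Rgs16 without control 5w 1 (adjusted p from 0.0510 to 0.0737), Gng12, Rgs20, Gnas, Gna13, Rgs16, Gnat3, Rgs2, Gnai1, Gnb4 and Gnao1 without control 5w 2 (adjusted p from 0.0570 to 0.108), and Gnat1, Gnas, Gna13, Gnat3, Rgs2, Gnai1, Gnb4 and Gnao1 without control 5w 3 (adjusted p from 0.0518 to 0.107). Others lost were Grk4, Gna13, Rgs16, Gnat3, Rgs2, Gnai1, Gnb4 and Gnao1 without control 9w 1 (adjusted p from 0.0598 to 0.127), Gng11, Gng12, Grk6, Gnas, Grk4, Gna13, Rgs16, Gnat3, Rgs2, Gnb4 and Gnao1 without control 9w 2 (adjusted p from 0.0593 to 0.146), and Gnat1, Gnai1 and Gnb4 without control 9w 3 (adjusted p from 0.0632 to 0.0716). The count of 21 was 12 without control 5w 2, 13 without control 9w 1 and 10 without control 9w 2. Of the marker lists, 5 of 7 fibroblast markers fell, with sums of 4459.8, 40884 and 32940.0 CPM in control 5w and 4278, 3038 and 4476 CPM in control 9w (Col3a1 the most counted on average), and 6 of 7 endothelial markers rose (1593, 1204 and 1409.6 and 3137, 3497 and 2625 CPM). Of 8 tested leukocyte markers 4 fell (284, 562 and 497 and 196, 162 and 199.7 CPM, Csf1r the most counted on average), and 3 of 6 atrial markers rose (3302, 6132 and 4658 and 5242, 199 and 23531 CPM). Smooth muscle and pericyte markers gave 1 rise and 1 fall of 9, and ventricular markers 1 fall of 7. Their part in the PC calls was not tested.

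Against HFpEF, EMPA + PFD changed 26 of 51 members in edgeR, beside 22.3% of all tested genes higher and 24.5% lower. Of the 26, 23 did not overlap, against 92.6% of all genes called, and the count was 13 with the Eif2s3y term. The 12 with the smallest adjusted p were Gnb2, Rgs6, Gnb1, Arrb2, Rgs10, Grk6, Gng10, Rgs14, Grk4, Rgs19, Gnb4 and Gnai2, and all of these except Rgs6 fell. Rgs6 rose from 4.88, 10.9 and 9.91 CPM in HFpEF to 33.8, 51.8 and 64.4 CPM in EMPA + PFD (log2 fold change 2.55, standard error 0.42, adjusted p = 0.000604). Arrb2 fell from 62.4, 39.3 and 47.2 to 20.2, 20.0 and 19.8 CPM (log2 fold change -1.31, standard error 0.24, adjusted p = 0.000966). Rgs10, an RGS gene of leukocytes and microglia among others, fell from 65.9, 38.0 and 44.6 to 12.5, 12.3 and 17.1 CPM (log2 fold change -1.82, standard error 0.34, adjusted p = 0.00116). The log2 fold changes of the others were -0.65 for Gnb2, -0.61 for Gnb1, -0.70 for Grk6, -1.30 for Gng10, -1.64 for Rgs14, -0.81 for Grk4, -1.27 for Rgs19, -1.15 for Gnb4 and -0.53 for Gnai2. The remaining 14 had adjusted p from 0.00347 to 0.0360, with Gnb5, Gnao1, Gng5, Gna12, Rgs7 and Gnb3 higher and Gna15, Gng8, Gng12, Gng2, Rgs1, Gnai1, Grk2 and Gng11 lower.

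The first 16 of these calls by adjusted p, from Gnb2 to Gnb5, were kept without each library of the 2 groups. Those lost were Gng2, Gng5, Rgs1, Grk2, Gna12, Rgs7 and Gnb3 without HFpEF 1 (adjusted p from 0.0565 to 0.117), Gnao1, Gna12, Gng11 and Rgs7 without HFpEF 2 (adjusted p from 0.0521 to 0.151), and Gnao1, Gng2, Rgs1, Gnai1, Grk2, Gna12, Gng11, Rgs7 and Gnb3 without EMPA + PFD 2 (adjusted p from 0.0539 to 0.109). Rgs1 and Gnb3 were lost without EMPA + PFD 1 (adjusted p = 0.0543 and 0.0693), and Rgs7 and Gnb3 without EMPA + PFD 3 (0.139 and 0.0516). Without HFpEF 1 and 3 the count was 14, of which 12 were among the 26, and Rgs1 turned to 0.88 (adjusted p = 0.469). The 12 were Gnb2, Rgs6, Gnb1, Arrb2, Rgs10, Grk6, Gng10, Rgs14, Grk4, Gnai2, Gnao1 and Gng11. Of 8 tested leukocyte markers 7 fell, with sums of 868, 283 and 556 CPM in HFpEF and 171, 114 and 206 CPM in EMPA + PFD, and 5 of 7 ventricular cardiomyocyte markers rose (9592, 18780.0 and 28833 and 54375, 77407 and 65876 CPM). Of the fibroblast markers 4 of 7 fell, of the endothelial markers 2 of 7 and of the blood and platelet markers 2 of 4, while smooth muscle and pericyte markers gave 1 rise and 3 falls of 9. Their part in the calls of Rgs10, Arrb2 and the other members was not tested.

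The 250 bases before the start of the 3 kinase genes that fell together in TE, and of the 3 members that fell together in DE, are shown for reference, 5′ to 3′ along the gene (RefSeq, build GRCr8, which is not the build the reads were aligned to). Promoter entries were found for 47 of the 58 members. Capitals mark matches, on either strand, to the cyclic AMP response element TGACGTCA, the CCAAT box CCAAT, the GC box GGGCGG or the TATA box TATAAA, which were found in 1.59%, 34.0%, 30.5% and 12.9% of all 33469 promoters over the same length. Grk6 (chr17:9197955-9198204, minus strand) had 1 CCAAT box and 5 GC boxes, 3 of which overlap by their end bases, and Grk4 (chr14:80305293-80305542, minus strand) had 1 GC box. Gnao1 (chr19:11198438-11198687, minus strand) had 1 cyclic AMP response element and 4 GC boxes, and Gnb5 (chr8:84956379-84956628, plus strand) had 3 GC boxes. Grk5 (chr1:270014086-270014335, plus strand) and Rgs6 (chr6:107996245-107996494, plus strand) had no match to the 4 motifs. No set of 3 shared a motif, and a match describes letters and not the binding of a factor.
Grk4: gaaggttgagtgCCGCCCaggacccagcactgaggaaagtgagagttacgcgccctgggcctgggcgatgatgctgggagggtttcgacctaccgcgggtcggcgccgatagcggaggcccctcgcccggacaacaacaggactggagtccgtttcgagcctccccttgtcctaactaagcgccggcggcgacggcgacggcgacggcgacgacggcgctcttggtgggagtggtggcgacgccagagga
Grk5: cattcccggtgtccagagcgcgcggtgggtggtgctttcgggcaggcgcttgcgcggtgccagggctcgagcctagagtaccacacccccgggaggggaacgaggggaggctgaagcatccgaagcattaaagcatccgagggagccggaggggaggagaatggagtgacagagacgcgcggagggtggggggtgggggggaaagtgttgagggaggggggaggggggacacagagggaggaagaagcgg
Grk6: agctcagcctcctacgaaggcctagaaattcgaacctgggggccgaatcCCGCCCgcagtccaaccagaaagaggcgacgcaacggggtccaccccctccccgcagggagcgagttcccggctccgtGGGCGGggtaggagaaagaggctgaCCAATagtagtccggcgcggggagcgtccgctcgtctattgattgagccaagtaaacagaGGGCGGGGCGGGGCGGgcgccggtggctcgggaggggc
Gnao1: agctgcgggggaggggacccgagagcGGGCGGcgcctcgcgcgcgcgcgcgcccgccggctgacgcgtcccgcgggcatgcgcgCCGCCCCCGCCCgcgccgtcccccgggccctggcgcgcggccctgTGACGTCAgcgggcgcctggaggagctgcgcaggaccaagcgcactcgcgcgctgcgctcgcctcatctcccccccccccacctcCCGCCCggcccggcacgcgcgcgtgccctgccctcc
Gnb5: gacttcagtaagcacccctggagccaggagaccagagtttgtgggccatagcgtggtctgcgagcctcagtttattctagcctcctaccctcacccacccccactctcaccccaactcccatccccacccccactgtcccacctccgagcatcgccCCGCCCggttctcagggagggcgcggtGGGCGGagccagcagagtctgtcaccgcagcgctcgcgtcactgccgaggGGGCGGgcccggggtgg
Rgs6: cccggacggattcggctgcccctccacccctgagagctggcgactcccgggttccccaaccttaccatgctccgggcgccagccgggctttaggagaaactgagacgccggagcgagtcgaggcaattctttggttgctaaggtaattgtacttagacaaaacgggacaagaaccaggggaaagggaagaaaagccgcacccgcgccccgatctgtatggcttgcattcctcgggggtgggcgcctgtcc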

How the data were processed

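RNA from left ventricles was sequenced in 19 libraries. Counts per gene symbol were deposited as the authors made them, with Trim Galore, FastQC, HISAT2 on rn6 and HTSeq. Versions, annotation, strand setting and the treatment of reads in overlapping genes are not given in the sources used here. The authors left out 1 EMPA and 1 PFD sample as corrupted.

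Counts were fitted with edgeR 4.0.16 in R 4.3.3 in 1 model of the 7 groups (TMM normalization, filterByExpr, quasi-likelihood F test), with p-values adjusted over all 12388 tested genes by Benjamini-Hochberg. Alternatives used DESeq2 1.42.0 and voom with quality weights in limma 3.58.1, other normalizations and filters, the compared libraries alone, a 2-fold minimum, a replicate block, an Eif2s3y term, and fits without single libraries or without HFpEF 1 and 3. The method was also run on simulated data, whose outcome is not given here and on which no result rests. The members and lists were chosen with earlier results of these data known. Named are members with an adjusted p under 0.05 (in full at most the 12 smallest per comparison), 23 members named whatever their values, and at most 8 pathway genes each for DE and TE, with Kcnj5 added beside its figure. Gene overlaps and promoters came from RefSeq (GRCr8), matched by symbol, where 28 of the 58 members overlap another gene and may share reads with it. Some pathway genes and the nerve cell markers are not reported here.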

Additional observations from a re-analysis of the deposited data

Results flagged for a closer look

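The log2 fold changes in UT and DE differed for 13 members, by a test of their difference in the same model. The value in UT was higher for 11.8% of tested members and 9.76% of all tested genes, and lower for 13.7% and 10.2%. The difference was -1.77 for Gnai3, -2.97 for Gnat2, -2.49 for Gnat1, -1.67 for Gng11, -1.07 for Rgs12, -4.33 for Rgs20 and -3.90 for Rgs1, where UT was the lower. It was 1.03 for Gna12, 1.14 for Gnb5, 1.07 for Rgs5, 1.92 for Rgs6, 1.31 for Gnao1 and 0.53 for Gna11, where UT was the higher. The difference contains the change between the controls with its sign turned. Of the 13, 9 (69.2%) also passed in PC, as did 81.1% of all genes called for the difference, in both sets always with the opposite sign. Gnai3, Gnat2, Gnat1, Gng11, Rgs12 and Rgs20 rose in PC and Gna12, Gnb5 and Gnao1 fell. Without HFpEF 1 and 3 the difference was -0.41 for Rgs1, -3.24 for Rgs20, -2.01 for Gnat1 and 1.56 for Rgs6, and these 4, Gnb5, Rgs5 and Gna11 did not pass. The untreated libraries all lack Eif2s3y and the control 9w libraries all have it, and the part of this in the differences was not tested beyond the fit with a term. The libraries of DE had at most 3 counts of RT1-CE16 and those of UT 583 to 922. The week of harvest cannot be told apart from this difference between the animals. Groups of 3 or fewer libraries were not tested for single outlying values.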

How the results depend on the processing

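The number of members called depended on the method. DESeq2 called 5 members in UT, 10 in TE and 6 for EMPA + PFD vs. EMPA (6.69%, 20.6% and 17.4% of all tested genes), where edgeR called 1, 6 and 3. With voom the counts were 40 in PC, 22 in DE, 17 in UT, 17 in TE, 9 for EMPA + PFD vs. EMPA and 31 for the difference between UT and DE, beside 70.7%, 40.5%, 40.4%, 30.0%, 24.9% and 47.8% of all tested genes. With only the compared libraries they were 4 in DE, 2 in UT and 0 in TE. Shares of all tested genes in those fits are not given here, so these counts are no result about the members in particular. With a 2-fold minimum they were 10 in PC, 7 in DE, 0 in TE, 0 for EMPA + PFD vs. EMPA and 13 for EMPA + PFD vs. HFpEF.

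With Eif2s3y detection as a term, 8 members were called in DE, 0 in UT, 3 in TE and 13 for EMPA + PFD vs. HFpEF. Without HFpEF 1 and 3, the counts were 7 in DE and 14 for EMPA + PFD vs. HFpEF. Rgs1 reversed in both fits, to -0.23 and -0.23 in DE and to 0.88 and 0.88 for EMPA + PFD vs. HFpEF. The cause was not tested. Shares of all tested genes in the fits with the term and without HFpEF 1 and 3 are not given here. The lower counts are therefore no result about the members in particular.

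Leaving out 1 library of the compared groups gave 10 to 23 members in PC, 6 to 10 in DE, 0 to 4 in UT, 0 to 9 in TE, 0 to 5 for EMPA + PFD vs. EMPA, 19 to 26 for EMPA + PFD vs. HFpEF and 6 to 21 for the difference between UT and DE. Where a fit left 1 HFpEF, EMPA or PFD library, the lone sample was assumed to vary like the other groups. Where leaving out 1 library lost a DE call, log2 fold changes were 0.34 to 0.47 for Grk6, 0.43 to 0.55 for Grk4 and -0.73 to -0.61 for Gnb5. They were 0.50 to 0.68 for Gnai3, 0.54 to 0.76 for Rgs12 and 0.83 to 1.18 for Gng11. For Arrb2 they were 0.56 to 0.58, for Rgs1 2.27 to 3.28, and for Gnai3 in UT -1.13 to -1.02.

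Replicate numbers do not mark pairs in the sources used here. Deviations of libraries with the same number correlated between -0.567 and 0.305, and each library went best with its own number only for EMPA vs. untreated and EMPA + PFD vs. EMPA. With the number as a replicate block, the counts were 22 in PC, 11 in DE, 1 in UT, 4 in TE, 1 for EMPA + PFD vs. EMPA, 24 for EMPA + PFD vs. HFpEF and 11 for the difference between UT and DE.

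RLE and upper quartile normalization and the other filters moved no count by more than 1.5 times. Upper quartile normalization shifted the median log2 fold change of all genes by -0.12 in TE, -0.10 for EMPA + PFD vs. EMPA and -0.20 for EMPA + PFD vs. HFpEF, and the fit with no filter shifted the last by -0.14.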
